A study of Homo sapiens with 16 samples.

Results

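The CL and CC arms of zdna4 are compared here in U2OS, a human osteosarcoma cell line. The comparison uses 4 of the 16 libraries of the series, CL replicates 1 and 2 against CC replicates 1 and 2, chosen by their titles. Total RNA extracted with Trizol was sequenced after preparation with an Abclonal kit. The genotype label reads zdna4_CC or zdna4_CL, and neither zdna4 nor the arm is spelled out, so neither is taken as a control, and changes are CL over CC. Whether replicates come from separate cultures, or the cells from 1 clone, is not in the labels, so p-values measure the spread between these libraries, which may be technical. The other 12 libraries hold both arms of zdna1, zdna2 and zdna3 in 2 replicates each, in the same cell line.

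The series title names MYC, FACT and Z-DNA. Z-DNA is DNA in a left-handed helix, which the negative supercoils left behind a moving RNA polymerase favour. FACT, the pair of SUPT16H and SSRP1, takes apart and rebuilds nucleosomes in front of and behind the polymerase, while topoisomerases release the supercoils. MYC pairs with MAX to bind E boxes and raises transcription of many growth genes. U2OS cells are mesenchymal in character and divide continuously, so genes of mitosis, cytoskeleton and matrix are among those they express.

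The arms differed widely in depth. Reads in human genes numbered 39335 and 40886 in the CC libraries and 310187 and 225177 in the CL libraries, so that 1 read stood for 25.4 and 24.5 CPM (reads scaled as if each library held the same total) in CC and for 3.22 and 4.44 CPM in CL. A weakly expressed gene could therefore have 0 to 5 reads in CC, and small changes of such genes were not detectable at this depth. Of 12 osteosarcoma and mesenchymal markers 11 had reads in CC and 11 in CL. Their summed level was 4614 and 5335 CPM in CC and 6075 and 6144 CPM in CL, with the transcription factor TWIST1 at 0 in all 4 libraries. The 8 blood markers had 0 reads in every zdna4 library. The 8 epithelial markers summed to 108 and 52.8 CPM in CC against at most 17.9 CPM in CL (6 and 9 reads), and the 6 liver markers to 243 and 185 CPM against 86.4 and 84.8 CPM (16 and 46 reads), so both lists were higher in CC. The 6 neural markers summed to 27.0 and 0 CPM in CC and 19.2 and 13.4 CPM in CL (1 and 9 reads). The background gauge described below predicts 5.36 reads over the CC pair for the epithelial list and 6.73 for the liver list. It predicts 6.64 for the neural list and 4.29 for the blood list, above what was counted. The part of these cell types in the results was not tested.

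The row of the zdna4 contig, an extra reference sequence counted as 1 gene over positions 1 to 198 on its plus strand, is kept apart from the human genes. It gave 8525 and 6529 reads in CC against 4390 and 2911 in CL. Per 1000 human-gene reads these are 217 and 160 in CC and 14.2 and 12.9 in CL. Both CC libraries lay above both CL libraries, and the log2 change was -3.88 (SE 0.0838, adjusted p = 7.75e-44, limma). The spread behind this SE and p is pooled with abundant human genes and with the other 12 libraries, which hold their own contigs. With only the 4 zdna4 libraries fitted the SE was 0.0919 and the adjusted p 1.65e-11 (limma). Without CC replicate 1 the change was -3.65, and without CC replicate 2 it was -4.08. The contig took 17.8% and 13.8% of all assigned reads in CC against 1.40% and 1.28% in CL.

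Both CC libraries also carried reads spread over genes that U2OS cells are not known to use. Olfactory receptors, the odour sensors of the nasal epithelium, are silent in most other tissues, so that their reads gauge a background laid evenly over exons. The 422 olfactory receptor rows held 59 and 63 reads in CC, from 56 and 58 different genes with at most 2 reads each. In CL they held 37 and 24 reads in libraries of several times the depth. These reads come to 1520 ± 28.9 CPM in CC and 113 ± 8.98 CPM in CL (mean ± SD, n = 2), and the other 12 libraries ran from 63.6 to 420 CPM. CC thus stood above all other libraries in this measure, and CL lay within their range.

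If the same density of reads lay over all exons, it would make up 29.3 ± 0.558% of the human-gene reads of CC and 2.18 ± 0.173% of those of CL (mean ± SD, n = 2), against 1.23% to 8.11% in the other 12 libraries. The plot of this share by library shows the CC pair apart from the rest. Other gauges gave lower shares of the CC reads. A set of 184 genes from other silent families gave 18.2 ± 3.80%, and the olfactory receptors without their densest rows 24.1 ± 3.47% (both mean ± SD, n = 2). The 7548 genes without a read in the other 14 libraries, a gauge added after the data were seen, gave 12.4 ± 1.61% (mean ± SD, n = 2). That choice leaves out genes with background reads in those 14 libraries.

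**Figure D1:**
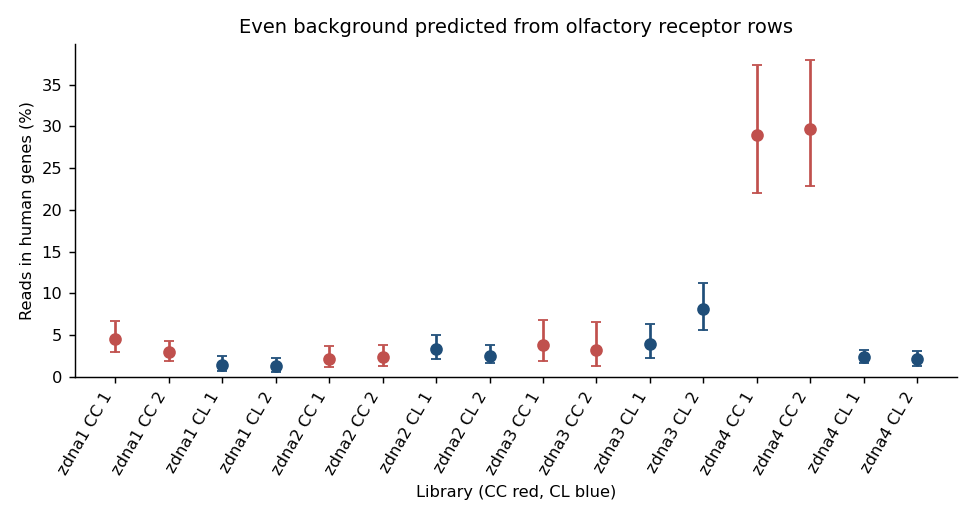
Share of human-gene reads that the read density of 422 olfactory receptor rows predicts if it lies evenly over all exons (vertical axis, %), for each of the 16 libraries (horizontal axis). Points are libraries, bars are exact 95% Poisson intervals that cover counting error only, and the zdna4 CC libraries lie at 28.9% and 29.7% while the other 14 lie at or below 8.11%.

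The gauges part with exon length. Among genes silent in the other 14 libraries, those with exons of up to 500 bases had 51 and 66 reads in the CC libraries where olfactory receptor density predicts 52.5 and 56.0. Genes with over 4000 bases of exon had 64 and 74 reads where it predicts 378 and 404. Between these ends it predicts 145 and 155 reads for 500 to 1000 bases, where 91 and 157 were counted, 295 and 315 for 1000 to 2000 bases, where 138 and 155 were counted, and 460 and 491 for 2000 to 4000 bases, where 172 and 193 were counted. The prediction was thus close to the counts of genes of up to 500 bases and above them in both libraries from 1000 bases on, a range that includes the mean length of the olfactory receptor rows themselves (467 kb over 422 rows). Olfactory receptor density gave the highest share of the gauges and is used below, and genes where it exceeds 25% of the CC reads are described apart. Among the genes tested it predicts 10.4% and 10.9% of the reads in CC and 0.756% and 0.674% in CL, and 1233 of 4632 genes exceed 25%.

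**Figure D2:**
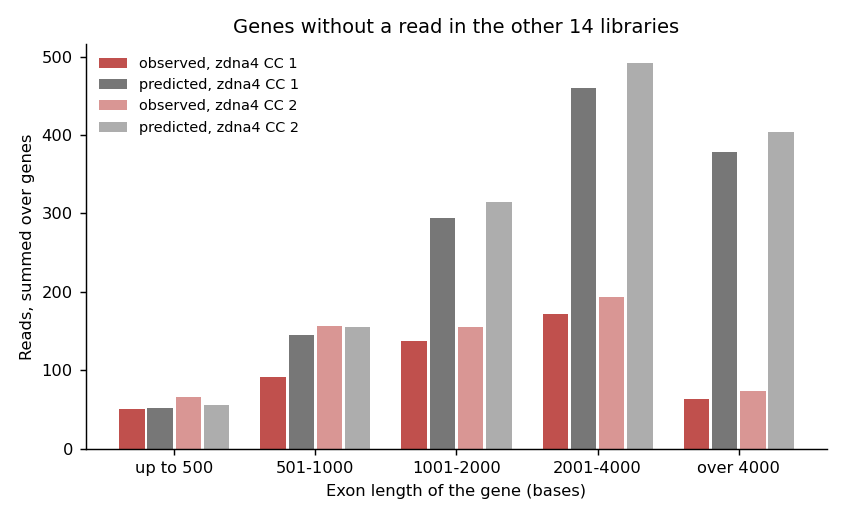
Reads summed over genes that had no read in any of the 14 libraries other than zdna4 CC (vertical axis), by the exon length of the gene in bases (horizontal axis). Red bars are the reads observed in each CC library and grey bars those predicted from olfactory receptor density. Observed and predicted reads are close for genes of up to 500 bases (51 and 66 against 52.5 and 56.0), and the prediction is higher for genes over 4000 bases (378 and 404 against 64 and 74). Among long genes, the choice of genes without a read in 14 libraries keeps those of low read density.

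Of 28207 human genes, 4632 had a mean of at least 50 CPM and were tested, and a gene is called where limma and edgeR's quasi-likelihood test both gave an adjusted p under 0.05 in the same direction. Between the zdna4 arms 33 of 4632 genes were called (0.712%), of which 21 were higher in CL (0.453%) and 12 lower (0.259%). Those higher included 4 genes of the mitosis list (TOP2A, KPNA2, RACGAP1, KIFC1), the tubulins TUBB and TUBA1B, ACTB and AHNAK of the actin and scaffold list, JUN, and the small RNAs RN7SK and RNU5E-1. Those lower included DOCK6 and LOC150051, both abundant in CC alone, FLNC of the actin and scaffold list, HK2 and NDRG1 of the hypoxia and glycolysis list, and ERRFI1, MAP2K3, FOSL1 and ANKRD1, each from a different list. Of the 33, 5 reached 50 CPM only through the arm where they were high, among them DOCK6, LOC150051 and TTN through CC and FLJ22447 through CL, so they had to differ and their levels are given as a description. The counts called in each list below stand beside these shares of all genes, 0.453% higher and 0.259% lower. Fold changes, SE and adjusted p below are limma's unless another tool is named. Each tool alone called 54 genes, 42 of them higher by limma and 29 higher by edgeR. By limma 483 of the 4632 genes had an unadjusted p under 0.05, where 232 would be expected if no gene changed and the p-values were exact. On the log scale genes with few CC reads can be misstated, so the excess is no measure of real change. Counts of such genes in the lists below stand beside these 483 of 4632.

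The count depended on the CC libraries. It was 10 without CC replicate 1 and 10 without CC replicate 2, 27 without CL replicate 1 and 20 without CL replicate 2. ANXA2, DOCK6, LOC150051, RN7SK and TUBB were called in all 4 of these fits. Of the 33 genes, RNU5E-1 (1.42) and AHNAK (0.79) were also called without CC replicate 1, and JUN (4.90), VIM (0.93) and ANKRD1 (-1.87) without CC replicate 2. Each of the 4 mitotic genes lost its call both without CC replicate 1 and without CC replicate 2, with its direction kept. Scaled by library totals 43 genes were called, 34 of them higher, and on the scale of the deposited values, whose constant per library is unexplained in the sources used here, 148, of which 142 were higher. The median gene stood at 0.08 (log2) in CL over CC under TMM scaling, at 0.17 under library totals and at 0.44 on the deposited scale, so a direction below is relative to a median that moves with the scaling. With 2 libraries in each arm the smallest two-sided p of an exact permutation test is 0.33, and the calls therefore rest on a spread that the models pool across genes and groups. After subtraction of the predicted background limma alone called 22 genes, 13 of them among the 33, including DOCK6, LOC150051, FLNC and NDRG1 lower, and TUBB, RN7SK, RNU5E-1, JUN, KIFC1, MAP1A, CPSF6 and DCBLD1 higher. The other 20 kept their direction and lost the call, among them ANXA2 (0.62), AHNAK (0.57), VIM (0.49), TUBA1B (0.58), SPARC (0.63) and ACTB (0.20). Library totals and TMM factors were computed anew on the subtracted reads, so a change can move although few of a gene's own reads were removed. In genes of at least 500 CPM the median change went from 0.11 to -0.07. Predicted background was 0.0936% of the CC reads of ACTB and 0.391% of those of ANXA2. Both tools on the subtracted reads called 12, of which 9 were among the 33.

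**Figure D3:**
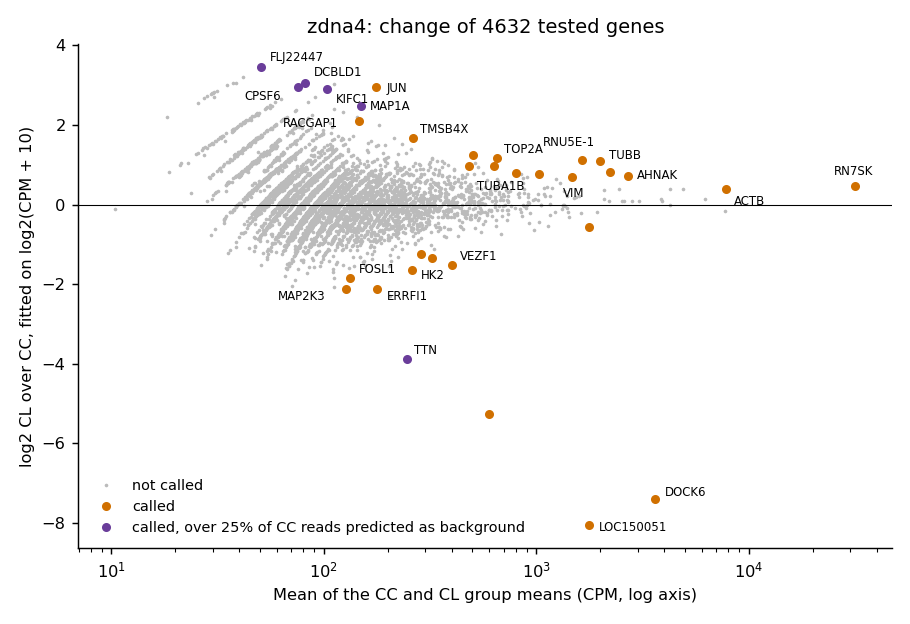
Fitted log2 change of CL over CC (vertical axis) against the mean of the 2 group means in CPM (horizontal axis, log scale) for the 4632 genes tested. Orange points are called genes, purple points are called genes with over 25% of their CC reads predicted as background, and grey points are the rest; the 2 lowest orange points are LOC150051 and DOCK6, and stripes at the left come from genes with few CC reads.

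The largest differences were those of DOCK6 and LOC150051, which were abundant in CC and rare in every other library. DOCK6, an exchange factor that activates the GTPases RAC and CDC42 (minus strand of hg19 chromosome 19, 11309971 to 11373200), was counted 344 and 196 times in CC against 11 and 6 times in CL. These are 9283 and 5177 CPM against 35.2 and 26.8 CPM. Both CC libraries lay far above both CL libraries and above the 1 to 7 reads of each of the other 12 libraries, and the CC over CL ratio was 227 (95% exact counting interval 141 to 393, 540 against 17 reads). LOC150051, an uncharacterised gene (plus strand of hg19 chromosome 21, 32931546 to 32932800), was counted 168 and 97 times in CC, 2 and 0 times in CL and 0 or 1 times in each of the other 12 libraries. Its CC over CL ratio was 949 (95% exact counting interval 260 to 7873.9, 265 against 2 reads). In both genes CC replicate 1 was the higher of the pair.

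Neighbours within 100 kb of these genes had no counts of that size. Next to DOCK6 lies KANK2, with 3 and 2 reads in CC against 22 and 10 in CL, which are 81.0 and 52.8 CPM against 70.4 and 44.7 CPM. ANGPTL8, which lies within the span of DOCK6 on the other strand, had 0 reads in all 4 libraries. TIAM1, which starts 146 bases from LOC150051 on the opposite strand, gave 4 and 3 reads in CC against 11 and 13 in CL, a level that was higher in CC without passing the test (log2 change -0.89, adjusted p = 0.763). SOD1, the cytosolic superoxide dismutase 99135 bases away, had 2 and 1 in CC and 46 and 37 in CL (log2 change 1.78, adjusted p = 0.0641). Counting was not stated to use strand, so a read cannot be assigned to DOCK6 or to an antisense transcript over it.

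TTN, the giant spring protein of muscle with 116854 bases of exon, gave 18 and 17 reads in CC against 7 and 5 in CL. Its level was 20.9 times higher in CC (95% exact counting interval 10.6 to 44.2, 35 against 12 reads). Olfactory receptor density predicts 87.2% of its CC reads. In the longest silent genes described above this density predicted more reads than were counted. The share for TTN and the predictions that follow may therefore be too high. Together the 6 muscle markers summed to 54 reads in CC, with 41.4 predicted, and to 34 in CL. NEB, the giant protein of the thin filament, had 5 and 10 reads in CC against 6 and 10 in CL (135 and 264 CPM against 19.2 and 44.7 CPM), with 6.87 reads predicted over the CC pair. MYH1, MYH7, ACTA1 and CKM were at 0 or 1 read in each CC library.

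Genes of mitosis were among those called higher in CL. The mitosis and G2/M list holds genes of spindle, kinetochore, chromosome condensation and cytokinesis, of which 52 of 60 were tested. Of these, 4 were called higher and 0 lower, against 0.453% and 0.259% of all genes. DESeq2 alone called 1 gene of the list and did not call RACGAP1, KPNA2 and KIFC1. By limma 14 had an unadjusted p under 0.05. The median log2 change of the list was 0.44 against 0.08 for all genes, and 42 of 52 lay above the all-gene median. After subtraction of the predicted background the median was 0.41 against 0.15. In zdna1, zdna2 and zdna3 the medians of the same genes were 0.12, -0.19 and 0.08. In bulk RNA a larger share of dividing cells and more of these RNAs per cell cannot be told apart.

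TOP2A, the topoisomerase that untangles sister chromatids (hg19 chromosome 17, 38544777 to 38574148), stood at 351 and 449 CPM in CC and at 912 and 884 CPM in CL. The groups did not overlap, and the change of 1.16 (SE 0.279, adjusted p = 0.0258) passed the test. RACGAP1, a subunit of the centralspindlin complex of cytokinesis, gave 3 and 1 reads in CC against 66 and 59 in CL. On 4 CC reads, its CL level was higher by 2.10 (log2, SE 0.519, adjusted p = 0.0322). KPNA2, an importin that carries proteins into the nucleus (hg19 chromosome 17, 66031851 to 66042975), stood at 324 and 317 CPM in CC and 627 and 656 CPM in CL, which is a log2 difference of 0.98 (SE 0.268, adjusted p = 0.0495). KIFC1, a minus-end kinesin of the spindle (hg19 chromosome 6, 33359600 to 33377673), gave 2 and 0 reads in CC against 55 and 41 in CL, a CL over CC ratio of 6.70 (95% exact counting interval 1.81 to 56.2, 96 against 2 reads). The background gauge predicts 31.2% of its CC reads. KIFC1 and KPNA2 were called in 0 of the 4 fits that leave out a library. After subtraction of the predicted background TOP2A was at 1.03, KPNA2 at 0.82 and RACGAP1 at 2.35, none of them called.

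The promoters of the 3 mitotic genes called that the sequence table holds are shown for the 2 motifs that cell cycle promoters are known for. A CCAAT box binds the trimer NF-Y, and a cell cycle homology region (CHR) binds the DREAM and MuvB complexes. The sequences run 5′ to 3′ on the gene's strand over 300 bases, 250 before the start of the gene and 50 after it (RefSeq, GRCh38.p14), with CCAAT and TTTGAA on either strand in capitals. TOP2A lies on the minus strand (chr17:40417847-40418146), KIFC1 on the plus strand (chr6:33391573-33391872) and KPNA2 on the plus strand (chr17:68035485-68035784).
TOP2A: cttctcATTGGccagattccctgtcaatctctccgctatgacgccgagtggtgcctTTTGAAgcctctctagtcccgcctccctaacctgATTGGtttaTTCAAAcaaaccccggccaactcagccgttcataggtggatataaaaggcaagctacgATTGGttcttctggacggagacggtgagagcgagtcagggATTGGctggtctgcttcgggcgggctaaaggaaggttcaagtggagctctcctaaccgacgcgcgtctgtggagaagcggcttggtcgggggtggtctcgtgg
KIFC1: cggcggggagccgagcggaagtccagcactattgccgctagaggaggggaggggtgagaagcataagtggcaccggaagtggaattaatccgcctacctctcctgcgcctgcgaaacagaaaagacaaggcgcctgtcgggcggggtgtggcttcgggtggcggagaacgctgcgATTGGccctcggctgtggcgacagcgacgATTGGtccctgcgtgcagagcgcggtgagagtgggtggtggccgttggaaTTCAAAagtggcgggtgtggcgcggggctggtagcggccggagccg
KPNA2: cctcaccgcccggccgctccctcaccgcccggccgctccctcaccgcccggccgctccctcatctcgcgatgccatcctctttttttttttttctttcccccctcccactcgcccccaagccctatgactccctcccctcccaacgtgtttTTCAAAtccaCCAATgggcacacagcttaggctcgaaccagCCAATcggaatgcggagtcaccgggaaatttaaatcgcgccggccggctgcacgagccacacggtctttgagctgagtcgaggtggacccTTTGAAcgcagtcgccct

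TOP2A carries 4 CCAAT and 2 TTTGAA matches, KIFC1 2 and 1, and KPNA2 2 and 2. Among the promoters of the list, 45 of 52 were in the table, and 34 held TTTGAA (75.6%) and 31 held CCAAT (68.9%). Among all 27305 promoters of the table the shares were 15.4% and 35.7%, and among the 3812 of genes tested 9.92% and 36.8%. Of the 16 called higher in CL that the table holds, 4 held TTTGAA and 8 CCAAT, and of the 7 called lower 0 and 4. CACGTG, the E box of MYC and MAX, was in 2 of the 16 and 0 of the 7, against 11.4% of genes tested. TGANTCA, the AP-1 site, was in 1 of the 16 and 2 of the 7, against 4.33%. A match describes the letters of the window and is no evidence of a bound site.

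Genes of S phase showed no calls. Of 34 tested, 0 were called by both tools, 1 by limma alone (TYMS), 0 by edgeR and 0 by DESeq2, and 1 had an unadjusted p under 0.05 by limma. Their median was 0.31, and 23 of 34 lay above the all-gene median. TYMS, which makes thymidylate, gave 0 and 7 reads in CC against 56 and 46 in CL. PCNA, the sliding clamp, stood at 81.0 and 52.8 CPM in CC and 131 and 165 CPM in CL with an adjusted p of 0.551.

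Tubulins form the microtubules of the cytoskeleton and the spindle. Of 9 tested, 2 were called higher and 0 lower, against 0.453% and 0.259% of all genes. Above the all-gene median lay 9 of 9, with a median of 0.35 (0.26 after subtraction, against 0.15 for all genes). In zdna1, zdna2 and zdna3 the medians of the same genes were 0.35, 0.19 and 0.08, so a raised median was not particular to zdna4. TUBB, a beta-tubulin of microtubules (hg19 chromosome 6, 30688129 to 30693195), stood at 1241 and 1294 CPM in CC and 2765 and 2657 CPM in CL. Both CL libraries lay above the highest of the other 12 libraries (2563 CPM) and both CC libraries below the lowest (1380 CPM), and TUBB was higher by 1.09 (SE 0.156, adjusted p = 4.54e-06). TUBA1B, an alpha-tubulin, stood at 702 and 819 CPM in CC and 1264 and 1322 CPM in CL, which is a log2 difference of 0.76 (SE 0.198, adjusted p = 0.0393). Reads of near-identical tubulin copies may be split between genes.

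Actin and scaffold genes had calls both ways. Of 39 tested, 2 were called higher and 1 lower, and the median of 0.08 equalled that of all genes. AHNAK, a giant scaffold under the plasma membrane, stood at 2078 and 1981 CPM in CC and 3207 and 3523 CPM in CL, which is a log2 difference of 0.73 (SE 0.140, adjusted p = 0.00149). ACTB, beta-actin, rose by 0.40 (SE 0.0950, adjusted p = 0.0252), which became 0.20 after subtraction of the predicted background and new scaling (adjusted p = 0.550). Only 0.0936% of its CC reads were predicted as background. FLNC, the muscle form of the actin crosslinker filamin, fell from 2078 and 2166 CPM to 1424 and 1424 CPM, a change of -0.57 (SE 0.145, adjusted p = 0.0364). All 3 kept their direction under library totals and on the deposited scale, where FLNC (-0.47 and -0.20) lost its call. FLNC also lost its call in each fit that leaves out a library.

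Other genes of shape and matrix called higher were ANXA2, a calcium-dependent membrane binder, VIM, the mesenchymal intermediate filament, and SPARC, a matrix protein of bone. ANXA2 stood at 1565 and 1664 CPM in CC and 3037.5 and 2657 CPM in CL, which is a log2 difference of 0.81 (SE 0.146, adjusted p = 4.09e-04). VIM was higher by 0.68 (SE 0.169) and SPARC by 0.79 (SE 0.218). PALLD, an actin bundler, changed by 0.96 (SE 0.253, adjusted p = 0.0394) and RHOBTB3 by 1.24 (SE 0.329, adjusted p = 0.0408). TMSB4X, which binds actin monomers, changed by 1.67 (SE 0.354, adjusted p = 0.00530). PALLD, RHOBTB3 and TMSB4X lost their calls after subtraction of the predicted background. PALLD also lost its call by DESeq2 alone, with pseudocount 2 and in each fit that leaves out a library. TMSB4X rested on 5 and 4 reads in CC against 121 and 94 in CL.

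**Figure D4:**
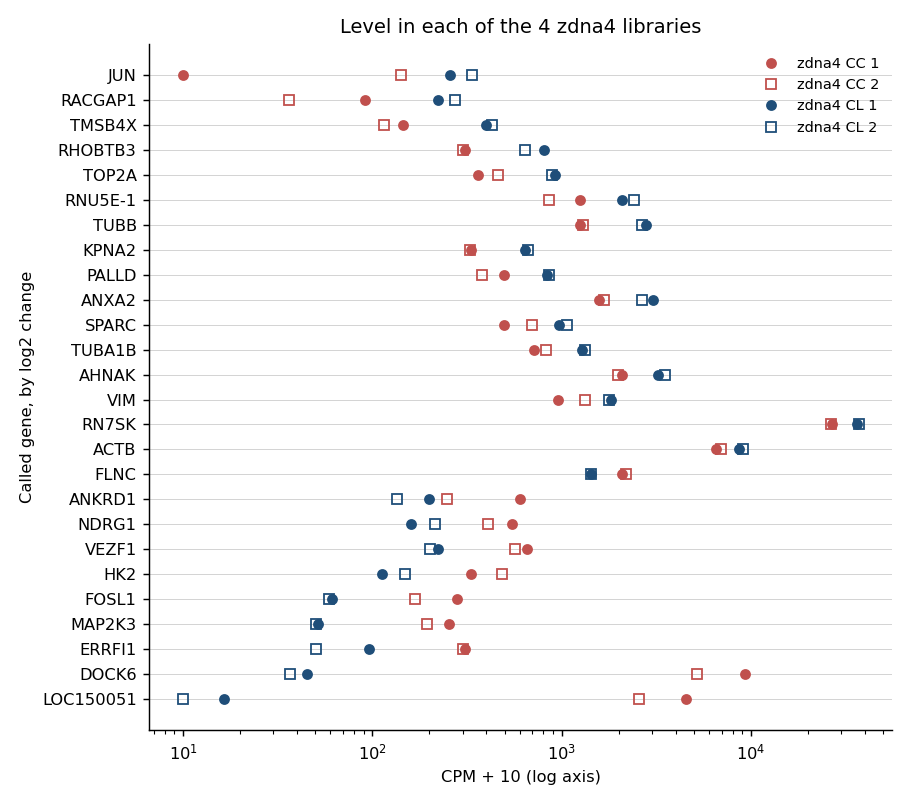
Level in each of the 4 zdna4 libraries (horizontal axis, CPM plus 10, log scale) for 26 called genes with up to 25% of CC reads predicted as background (vertical axis, ordered by log2 change). Red marks are CC, blue marks CL, filled circles replicate 1 and open squares replicate 2. The genes were chosen by a called difference between these libraries, so that their red and blue marks do not overlap follows largely from the choice. JUN and ANKRD1 show wide gaps between CC replicates.

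Of the small structured RNAs, RN7SK and RNU5E-1 were higher in CL. RN7SK, which holds the elongation kinase P-TEFb inactive (hg19 chromosome 6, 52860418 to 52860749), stood at 26715 and 26571 CPM in CC and 36469 and 37097 CPM in CL. Replicates differed little and the arms did not overlap, with a change of 0.47 (SE 0.0606, adjusted p = 4.89e-07). After subtraction of the predicted background and new scaling the change was 0.27 (adjusted p = 0.0420), and it was not called by both tools on the subtracted reads. Predicted background was 0.00435% of its CC reads. The other 12 libraries ran from 32589 to 42004 CPM, so CC lay below them. Of 8 structured RNAs of RNA polymerase III and of RNase P and MRP tested, 1 was called higher and 0 lower. RPPH1, the RNA of RNase P, stood at 4857 and 3645 CPM in CC and 5352 and 5671 CPM in CL, which passed edgeR (adjusted p = 0.0313) and DESeq2 but not limma (adjusted p = 0.0641). RN7SL1, which scaffolds the signal recognition particle, changed by -0.17 (SE 0.107, adjusted p = 0.630).

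RNU5E-1 is 1 of several copies of U5, the spliceosomal RNA whose invariant loop holds the exons for joining. It gave 46 and 32 reads in CC against 648 and 538 in CL. It stood at 1241 and 845 CPM in CC and 2074 and 2402 CPM in CL, which is a log2 difference of 1.12 (SE 0.171, adjusted p = 1.33e-05). RNU5B-1 gave 19 and 12 reads in CC against 209 and 169 in CL, which is a log2 difference of 0.80 (SE 0.254, adjusted p = 0.104) that did not pass the test. RNU5A-1 changed by 0.47 (adjusted p = 0.781), with 297 and 106 CPM in CC and 208 and 304 CPM in CL, where the groups overlapped. Reads in stretches that the copies share cannot be assigned to 1 of them. Of 8 spliceosomal RNAs tested, RNU5E-1 alone was called, and their median fell from 0.28 to 0.09 after subtraction of the background, below the 0.15 of all genes.

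AP-1 subunits split. JUN, which pairs with FOS proteins to form AP-1 (hg19 chromosome 1, 59246463 to 59249719), gave 0 and 5 reads in CC against 77 and 73 in CL. It stood at 0 and 132 CPM in CC and 246 and 326 CPM in CL, and the other 12 libraries ran from 177 to 902 CPM. Both CC libraries thus lay below all others, and the change of 2.96 (SE 0.452, adjusted p = 1.33e-05) passed both tools, edgeR with an adjusted p of 0.0142. Without CC replicate 1 the change was 1.07 and without CC replicate 2 it was 4.90, and only the second was called. FOSL1, an AP-1 subunit induced by RAS signalling, stood at 270 and 158 CPM in CC and 51.2 and 49.1 CPM in CL, which is a log2 difference of -1.85 (SE 0.467, adjusted p = 0.0351). Of 11 subunits tested these 2 were called. FOSL2 stood at 459 and 475 CPM in CC and 515 and 554 CPM in CL with an adjusted p of 0.912.

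Genes that growth factors induce within minutes to hours, and the inhibitors that feed back on the signal, had 1 call. Of 22 early response and feedback genes tested, 0 were called higher and 1 lower, and 5 of 22 lay above the all-gene median. Their median was -0.36 against 0.08 for all genes, and on the deposited scale -0.01 against 0.44. ERRFI1, which dampens EGF receptor signalling, stood at 297 and 291 CPM in CC and 86.4 and 40.2 CPM in CL, which is a log2 difference of -2.13 (SE 0.508, adjusted p = 0.0252). EGR1, an immediate early zinc finger factor, stood at 135 and 132 CPM in CC and 35.2 and 31.3 CPM in CL but did not pass (adjusted p = 0.112). Of 20 genes of the EGF receptor and MAP kinase cascade, MAP2K3, a kinase that activates p38, was called lower (-2.12, SE 0.536, adjusted p = 0.0351) and 0 higher. Of 25 targets of YAP and TGF-beta, ANKRD1, a YAP target, was called lower (-1.24, SE 0.338, adjusted p = 0.0495) and 0 higher. Its CC libraries stood at 594 and 238 CPM, and without CC replicate 1 the change was -0.57 and was not called.

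Hypoxia and glycolysis genes cover the response to low oxygen and the breakdown of glucose. Of 28 tested, 0 were called higher and 2 lower. Their median was -0.02 against 0.08 for all genes, and on the deposited scale 0.33 against 0.44. HK2, the hexokinase that starts glycolysis, stood at 324 and 475 CPM in CC and 102 and 138 CPM in CL, which is a log2 difference of -1.64 (SE 0.408, adjusted p = 0.0331). NDRG1, induced by low oxygen, stood at 540 and 396 CPM in CC and 150 and 205 CPM in CL, which is a log2 difference of -1.35 (SE 0.33, adjusted p = 0.0322). GAPDH, a later enzyme of glycolysis, stood higher in both CL libraries, at 3616 and 3724 CPM in CC and 4593 and 5126 CPM in CL, which passed edgeR (adjusted p = 0.0296) but not limma (adjusted p = 0.0795). VEZF1, a zinc finger transcription factor, was lower at 648 and 555 CPM in CC against 211 and 192 CPM in CL (-1.53, SE 0.416, adjusted p = 0.0495). It was called in 0 of the 4 fits that leave out a library.

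Besides TTN and KIFC1, the called genes with over 25% of CC reads predicted as background rest on 0 to 3 CC reads. MAP1A, a microtubule-associated protein, had 3 reads in CC against 140 in CL, a CL over CC ratio of 6.52 (95% exact counting interval 2.18 to 32.0). CPSF6, a subunit of the factor that cleaves messenger RNA 3' ends, had 1 against 74 reads (ratio 10.3, 1.80 to 414), and DCBLD1, a membrane protein, 1 against 81 (ratio 11.3, 1.97 to 452). FLJ22447, a long noncoding RNA, had 0 reads in CC against 53 in CL, which makes it at least 2.47-fold higher in CL, taking 3 reads over the CC pair as the floor. Predicted background was 1.75 reads for CPSF6 and 2.68 for MAP1A over the CC pair, close to or above what was counted. Both genes have a long exon length, at which the gauge exceeded the counts of silent genes, so these predictions may be too high. CPSF6 and FLJ22447 were called in 0 of the 4 fits that leave out a library.

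MYC and both FACT subunits, which the title names, did not pass the test. Of 5 DNA topoisomerases tested 1 was called, TOP2A, described above with the genes of mitosis. MYC stood at 270 and 475 CPM in CC and 243 and 259 CPM in CL (-0.50, SE 0.296, adjusted p = 0.597). SUPT16H stood at 270 and 343 CPM in CC and 314 and 299 CPM in CL (adjusted p = 0.998). SSRP1 stood at 405 and 291 CPM in CC and 439 and 464 CPM in CL (0.39, SE 0.277, adjusted p = 0.709). TOP1, which relaxes supercoils in transcribed genes, stood at 108 and 291 CPM in CC and 147 and 219 CPM in CL (adjusted p = 0.998). TOP2B, the form of type II topoisomerase that resting cells also use, changed by -0.34 (SE 0.448, adjusted p = 0.897).

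Binders of Z-form and double-stranded nucleic acids sense or edit such structures. ADAR, which edits double-stranded RNA and has a Z-binding domain, stood at 162 and 343 CPM in CC and 445 and 438 CPM in CL. The groups did not overlap, but the change of 0.87 (SE 0.319, adjusted p = 0.212) did not pass. ZBP1, the Z-form sensor of necroptosis, had 1 read in the 4 libraries together and was not tested. MAX gave 1 and 1 reads in CC against 18 and 15 in CL, with an adjusted p of 0.699. The median of 14 MYC network genes was -0.12 against 0.08 for all genes, and on the deposited scale 0.23 against 0.44. The median of 12 Z-nucleic acid and double-stranded RNA binders was 0.17. Of both lists limma, edgeR and DESeq2 each called 0, and 2 of either list had an unadjusted p under 0.05 by limma.

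Lists without a call by both tools still differed in their medians. Heat shock chaperones had a median of 0.39 (0.28 after subtraction of the predicted background, against 0.15 for all genes), with 21 of 25 above the all-gene median and 7 with an unadjusted p under 0.05 by limma. Limma and DESeq2 called 0 of them and edgeR 1. HSPB1, a small heat shock protein, stood at 324 and 343 CPM in CC and 663 and 728 CPM in CL (1.04, SE 0.307), with adjusted p of 0.0737 by limma and 0.0196 by edgeR. HSP90AA1, the inducible HSP90, stood at 837 and 555 CPM in CC and 1130 and 1090 CPM in CL, with an adjusted p of 0.0641. Ribosome biogenesis and nucleolar genes, classic targets of MYC, had a median of -0.23, with 11 of 48 above the all-gene median. In zdna1, zdna2 and zdna3 the medians of the same genes were -0.35, 0.08 and -0.02, so a lowered median was not particular to zdna4. Limma, edgeR and DESeq2 each called 0 of these genes, and 6 had an unadjusted p under 0.05 by limma. On the deposited scale the zdna4 median turned to 0.13, against 0.44 for all genes. WDR43, a factor of the small ribosomal subunit, stood at 513 and 449 CPM in CC and 285 and 255 CPM in CL (adjusted p = 0.195).

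Nuclear long noncoding RNAs had the lowest median of the lists with 8 or more members tested, -0.48 over 13 (-0.49 after subtraction), with 5 above the all-gene median. Limma, edgeR and DESeq2 each called 0 of the 13, and 1 had an unadjusted p under 0.05 by limma. NEAT1, the RNA scaffold of paraspeckles, stood at 1565 and 1136 CPM in CC and 912 and 906 CPM in CL (adjusted p = 0.473), all above the 250 to 663 CPM of the other 12 libraries. Proteasome genes had a median of 0.26 over 31 (0.16 after subtraction), ribosomal proteins 0.09 over 77 (-0.0902) and respiratory chain genes 0.18 over 34 (0.30). Cholesterol and fatty acid genes had a median of 0.39 over 17 (0.55), with 0.47, 0.12 and 0.14 in zdna1, zdna2 and zdna3. In these 4 lists edgeR and DESeq2 called 0, limma alone called 2 proteasome genes and 1 ribosomal protein gene, and 6, 6, 4 and 5 genes had an unadjusted p under 0.05 by limma. FADS2, a fatty acid desaturase, stood at 54.0 and 158 CPM in CC and 285 and 277 CPM in CL (adjusted p = 0.0750).

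**Figure D5:**
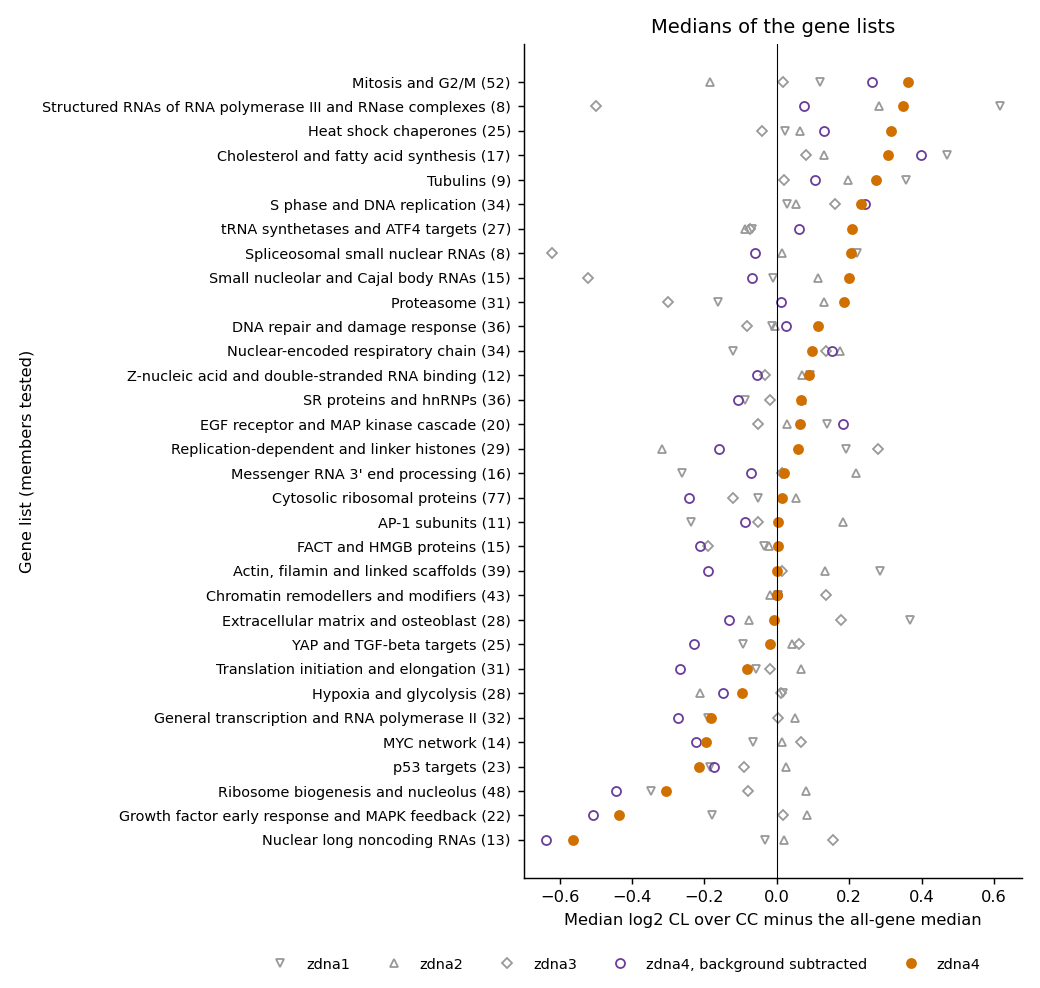
Median log2 change of CL over CC of each gene list minus the median of all genes tested (horizontal axis), for lists other than cell type markers with at least 8 members tested (vertical axis, members tested in brackets). Filled orange circles are zdna4, open purple circles zdna4 after subtraction of the predicted background, and grey open marks zdna1, zdna2 and zdna3. Of the lists drawn, the mitosis list lies farthest to the right and nuclear long noncoding RNAs farthest to the left in zdna4.

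The last comparison asks in which genes the zdna4 change differed from the mean CL over CC change of zdna1, zdna2 and zdna3, which share no library with it. Both tools called 22 of 4632 genes (0.475%). Besides DOCK6 (-7.60) and LOC150051, tested only because they are high in CC, these included TUBB (1.00), ANXA2 (0.82), AHNAK (0.71), TOP2A (1.36), TMSB4X (1.72), RNU5E-1 (1.36), RN7SK (0.48), FOSL1 (-2.16), HK2 (-1.76) and FLNC (-0.64). TOP2A changed by 0.22, -0.46 and -0.38 in zdna1, zdna2 and zdna3. RN7SL1 differed by -0.54 without passing the test within zdna4, its changes in zdna1 to zdna3 being 1.13, 0.50 and -0.52. JUN differed by 2.89 with an adjusted p of 1.88e-04 by limma and 0.0553 by edgeR, so it was not called.

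Levels in the other 12 libraries show on which side of the comparison the called genes stood apart. Of the 21 genes higher in CL, the CC mean lay outside the range of the other 12 libraries in 13 and the CL mean in 9. Of the 12 genes lower in CL, the CC mean lay outside that range in 6 and the CL mean in 4. Over all 4632 genes the CC mean lay outside in 21.9% and the CL mean in 9.78%, and a mean of CC rests on fewer reads. RN7SK, RNU5E-1, JUN, VIM, SPARC, TUBA1B, TMSB4X and RACGAP1 were below the range in CC and within it in CL. TOP2A, AHNAK, PALLD and RHOBTB3 were within the range in CC and above it in CL.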

How the data were processed

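The deposited values are a scaled signal per gene, not whole numbers. Per the file headers, the authors counted fragments over exons with featureCounts 2.0.1 in paired mode without a strand option, against hg19 plus the contig. Per the submitters' processing notes, Trim Galore 0.6.6, STAR and bedtools 2.29.2 were used, and hg19 and dm6 are named without a role. In each zdna4 library 100% of the deposited signal values are whole multiples, within 0.1 read, of the smallest step, which gave back the reads. What the authors' constant stands for is not given in the sources used here. A folder name in the file headers holds the word spikein, and whether the constant comes from added reference RNA is not stated, so the deposited scale is only an alternative.

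Reads were scaled to CPM with TMM factors (edgeR 4.0.16). A fit of 8 group means over all 16 libraries was made for genes of at least 50 CPM, with limma 3.58.1 (log2 of CPM after adding 10, array weights per group), and with edgeR's quasi-likelihood test, each with two-sided tests and Benjamini-Hochberg adjustment at 0.05. Fold changes and SE are limma's, on the log2(CPM + 10) scale, which can understate or overstate the change of genes with few CC reads. FLJ22447 was at 3.46 by limma and 6.66 by edgeR, and JUN at 2.96 by limma and 2.05 by edgeR. The design file assumed whole counts and the scaled values were therefore turned back into reads. DESeq2 1.42.0 and the other alternatives are in the closing section. Olfactory receptor read density times exon length gave the background of each gene. After its subtraction, library totals and TMM factors were computed anew. The contig entered the test as a row of its own and is in no count of genes. Fits were tested on simulated data.

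Genes were named by rule: up to 15 called genes each way whose arms do not overlap, up to 8 each way with over 25% predicted background, the 10 smallest p of the comparison with zdna1 to zdna3, 10 genes always, called members of a list or its 3 smallest p, and neighbours within 100 kb. EGR1, FOSL2, GAPDH, RPPH1, RNU5A-1 and the further genes that differed from zdna1 to zdna3 were picked once their values had been seen. A few genes and sequences that fall under these rules are not reported here. The members and the 35 gene lists were chosen with earlier results of these data known. Replicate numbers were not treated as pairs. Deviations of replicates with the same number correlated by -0.067 to 0.057 over 28 pairs. Deviations this near to counting noise would hardly show a pairing, so it is not excluded. Replicate counts differed beyond sampling noise (chi-square p = 0.00145 for CC and 9.54e-04 for CL), with chi-square over its degrees of freedom at 1.18 and 1.15. Without molecular identifiers reads are not independent molecules, so each interval and floor is for counting error alone.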

Additional observations from a re-analysis of the deposited data

Results flagged for a closer look

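In 22 genes the change of CL over CC in zdna4 differed from the mean change of zdna1, zdna2 and zdna3, by an interaction contrast that both limma and edgeR called. The zdna4 change was lower in genes that included DOCK6 (-7.60), LOC150051 (-8.38), COL27A1, a collagen (-2.25), ARC, an activity-induced gene (-2.24), FOSL1 (-2.16), HK2 (-1.76), FLNC (-0.64) and RN7SL1 (-0.54). It was higher in CPSF6 (3.21), MAP1A (2.73), DAG1, the dystroglycan precursor (1.95), TMSB4X (1.72), RHOBTB3 (1.52), TOP2A (1.36), RNU5E-1 (1.36), PALLD (1.28), RNU5B-1 (1.10), TUBB (1.00), ANXA2 (0.82), AHNAK (0.71) and RN7SK (0.48). DOCK6 and LOC150051 passed the level filter through CC alone. The values of LOC150051, CPSF6 and MAP1A rest on 1 to 3 reads in the lower zdna4 arm and depend on the pseudocount, so they are no bounds. COL27A1, ARC, DAG1, RNU5B-1 and RN7SL1 were not called within zdna4. The part of the even background of the CC libraries in these differences was not tested gene by gene; after its subtraction both tools called 10 genes, 9 of them among the 22.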

How the results depend on the processing

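Named genes kept their direction under every alternative run except TOP1, SUPT16H, TOP2B, RN7SL1 and RNU5A-1, none of them called between the zdna4 arms. TOP1 turned to -0.17 by edgeR, -0.16 by DESeq2, -0.0104 with pseudocount 50, -0.0691 and -0.11 after background subtraction (limma alone and both tools) and -0.24 without CL replicate 2, and ran from -0.64 (without CC replicate 1) to 0.70 (without CC replicate 2). SUPT16H turned to -0.0143 by DESeq2 and -0.12 and -0.0558 after subtraction, and ran from -0.13 to 0.19 without single libraries. On the deposited scale TOP2B turned to 0.0199 and RN7SL1 to 0.21, and RNU5A-1 ran from -0.22 (without CC replicate 2) to 1.20 (without CC replicate 1).

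Of 33 called genes, TUBB was called in every alternative that tested it, as was DOCK6, which passed the level filter through CC alone. By DESeq2 alone 28 genes were called, 12 higher and 16 lower in CL, with 21 of them among the 33. The count of called genes became 54 by limma alone, 54 by edgeR alone, 148 on the deposited scale, 7 without a filter, 11 with pseudocount 2, 7 with only the 4 zdna4 libraries fitted, and 12 with both tools on background-subtracted reads, a choice made after seeing the data. It ran from 10 to 27 without single zdna4 libraries, fits in which the lone library is assumed to vary like its group and the array weights stay as fitted on all. With the replicate block it was 27, and 20 for the comparison with zdna1 to zdna3. That comparison's 22 became 35 by library totals, 2 without a filter, 11 with pseudocount 2, 13 and 10 after subtraction (limma alone and both tools), and 10 to 21 without single libraries. The contig's change ran from -4.08 to -3.65 without single libraries, and was -3.88 with the replicate block. The background share of CC became 18.2% by other silent families, 24.1% without the densest rows and 12.4% by genes silent in the other 14 libraries, and 28.9% to 29.7% in single libraries. That of CL became 2.91% and 1.46% by the former pair and 2.06% to 2.30% in single libraries. The causes of these moves were not tested. The 39335 and 40886 reads of CC limit all results.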
